A study of Mus musculus with 8 samples.

Results

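Pan-neuronal genes, the cytoskeletal, RNA-binding and synaptic genes that nearly all neurons use, were examined in cultured mouse neurospheres with and without HP1gamma. A list of 28 genes was used, and a probe was assigned to a gene when its RefSeq accession belonged to that gene. Of the 20660 named genes on the array, 27 were of this list, and Snhg11, a long noncoding RNA, had no probe matched by accession. Neurospheres are floating balls of proliferating neural stem and progenitor cells. Here they came from the ganglionic eminence of the embryonic telencephalon at E14.5, and each sample was grown from the brain of an individual embryo. Total RNA of the quaternary passage was hybridised to 8 single-colour arrays of 1 slide.

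The groups were Cbx3-deficient floating neurospheres (labelled -/- and HP1gamma KO, 3 arrays), Cbx3-deficient adherent neurospheres (2 arrays) and wild-type floating neurospheres (labelled +/+, 3 arrays), called KO floating, KO adherent and WT floating. HP1gamma, the product of Cbx3, is a heterochromatin protein whose chromodomain recognises methylated lysine on a histone tail. The labels give the genotype without naming the allele, and the growth conditions in the labels, Neurobasal medium with B-27, 20 ng/ml EGF and 20 ng/ml bFGF on low-attachment plates for 7 days, are the same for the adherent samples. The study's title concerns the histone mark H3K27me3 at neuronal genes, which bears on why neuronal transcripts were measured. That mark was not measured on these arrays.

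Neurons switch on their genes in an order. A newborn neuron makes the tubulin Tubb3, the microtubule-binding protein Dcx and the stathmins Stmn2 and Stmn3, which act while the axon grows, together with neuronal RNA-binding proteins. Neurofilaments and the machinery of synaptic vesicles accumulate as it matures. EGF and FGF keep neurosphere cells dividing, so neuronal genes are usually low in such cultures. Outside neurons many of them are held down by the repressor REST and its partners.

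Levels are given as log2 of the spot's processed signal relative to the 75th percentile of its array, so 0 is the 75th percentile, and levels of different probes are not compared. That percentile ranged from 616 to 865 intensity units, and 44.5% to 55.4% of spots were well above background. The Cbx3 signal went against the label of 2 arrays. The array labelled KO adherent 2 had 5.91, and the array labelled WT floating 2 had -2.17. The other KO arrays had -1.86, -2.76 and -1.75 (floating 1, 2 and 3) and -2.03 (adherent 1), against 5.83 and 5.95 on WT floating 1 and 3. A further Cbx3 probe also separated these arrays from their labels, with -4.02, -2.08 and -3.65 on KO floating 1, 2 and 3 and -4.57 and 3.48 on KO adherent 1 and 2, against 3.98, -3.57 and 3.40 on WT floating 1, 2 and 3. Where these probes sit relative to the deletion is not stated in the labels. Results are therefore given for the labels as they stand and without these 2 arrays. The main comparison without them set KO floating 1, 2 and 3 and KO adherent 1 against WT floating 1 and 3. It joins floating and adherent KO cultures, and KO floating 1 and KO adherent 1 may share an embryo. Fewer or more neurons and less or more RNA per neuron cannot be told apart in these bulk samples.

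All 8 neural stem cell markers, among them Nes and Sox2, were above background on at least 1 array. Several defining neuronal genes were not. Stmn2, the neurofilament genes Nefl and Nefm, and the axonal adhesion gene Cntn2 were not well above background on any of the 8 arrays. Elavl2, an RNA-binding protein of early neurons, was above background on 4 arrays, and Syt1, the calcium sensor of vesicle release, on 3. Neither was above background on every array of a group of the labelled comparison, so they were not tested there. This left 21 genes for the test. Of the 27 genes, KO floating 1, 2 and 3 had 23, 22 and 21 above background and KO adherent 1 and 2 had 23 and 19, against 19, 23 and 18 on WT floating 1, 2 and 3. The lowest counts were on the 3 arrays with high Cbx3 signal. Of all spots, 49.1%, 44.5% and 49.3% were well above background on WT floating 1, WT floating 3 and KO adherent 2. The other arrays had 54.5%, 47.5% and 50.6% (KO floating 1, 2 and 3), 55.0% (KO adherent 1) and 55.4% (WT floating 2). Whether the counts of the list differ from this general share was not tested.

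With the labels as they stand, no pan-neuronal gene passed the test. In KO floating against WT floating 0 of 21 passed (limma, Benjamini-Hochberg adjusted over all features, threshold 0.05), where 0.00442% of all 22647 features did. At an unadjusted p under 0.05 there was 1, Mapt, against 1.73% of all features. The median log2 difference of the 21 was 0.22, against -0.03 for all features. The groups did not overlap for 3 of 21 members and for 8.4% of all features. Of these members Mapt and Snap25 were higher in KO and Dpysl3 was lower. In KO adherent against KO floating 0 of 21 passed and 0 had an unadjusted p under 0.05 (0% and 1.12% of all features). In KO adherent against WT floating 0 of 21 passed, and Dpysl3 alone had an unadjusted p under 0.05 (0.00442% and 1.79% of all features).

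Without the 2 arrays the picture changed. In KO floating against WT floating (3 against 2 arrays) 0 of 23 tested members passed (0.177% of all features, 0.0963% higher and 0.0809% lower), while 14 had an unadjusted p under 0.05 (25.3% of all features). The groups did not overlap for 20 of 23 members there, and for 51.1% of all features. In the joined comparison of 4 KO with 2 WT arrays 7 of 21 passed (33.3%, against 17.3% of all 21463 features tested), and 14 had an unadjusted p under 0.05 (37.7% of all features). Of the 7, 6 rose (8.99% of all features) and 1 fell (8.35% of all features). The genes that rose were Tubb3, Dcx, Mapt, Rbfox3, Celf3 and Nsg2, and Celf4 fell. Dcx, Celf3 and Rbfox3 entered the test through the KO arrays alone and so had to be higher there, and the count is only a description of the list. With probes above background on all arrays 6 of 18 passed (17.9% of all features). Tubb3, Mapt and Nsg2 rose (7.82% of all features), and Celf4, Gap43 and Uchl1 fell (10% of all features). The 4 KO arrays did not overlap the 2 WT arrays for 18 of 21 members, and for 53.4% of all features.

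**Figure D1:**
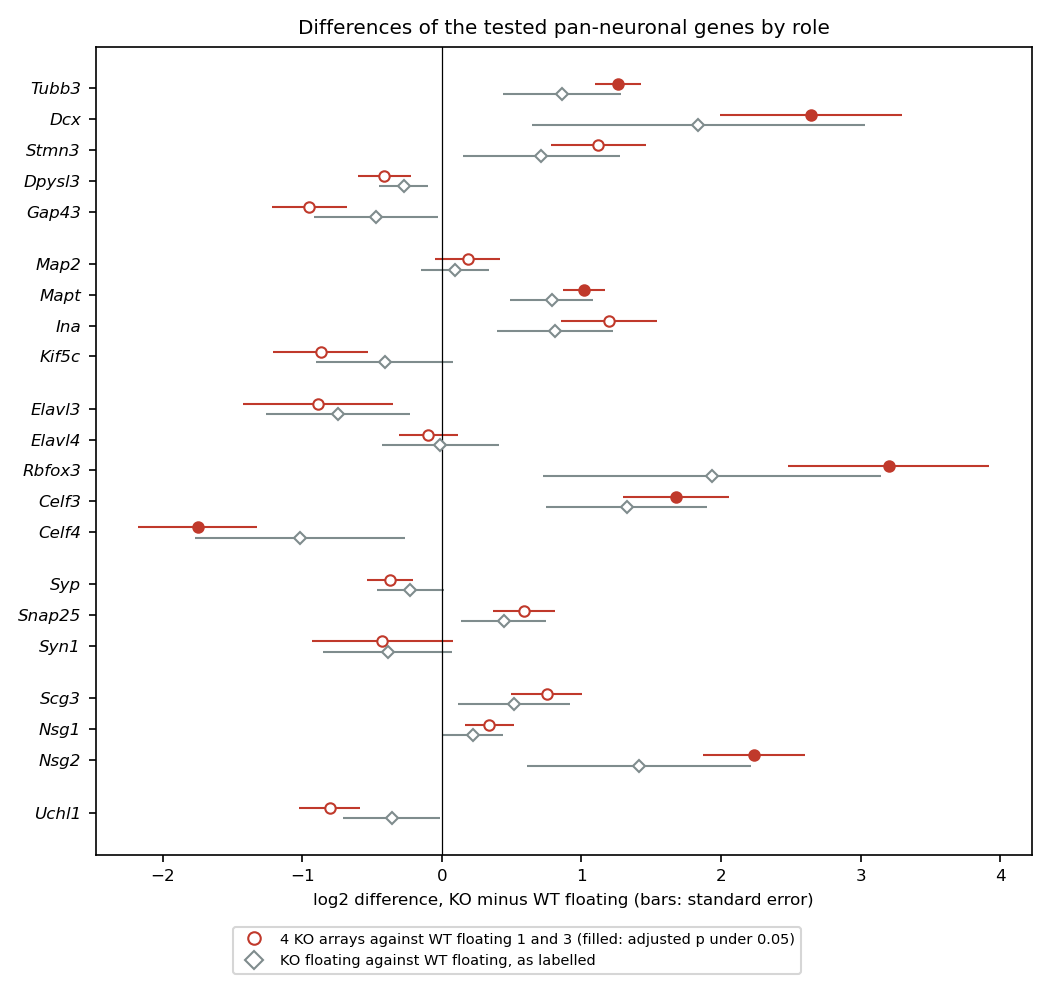
Log2 difference, KO minus WT floating, of the 21 tested genes, grouped by role from early cytoskeletal genes at the top to Uchl1 at the bottom. Circles show the 4 KO arrays against WT floating 1 and 3 and diamonds KO floating against WT floating as labelled, with standard errors. Of the circles 7 are filled (adjusted p under 0.05), and none of the diamonds is.

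The early cytoskeletal genes differed among themselves. Tubb3, the tubulin of young neurons, had 1.29, 1.05 and 1.51 on KO floating 1, 2 and 3 and 1.32 and 0.12 on KO adherent 1 and 2, against -0.03, 1.19 and 0.10 on WT floating 1, 2 and 3. Its signal thus had a low level on WT floating 1 and 3 and KO adherent 2, the arrays with high Cbx3, and a high level on the other 5. In the joined comparison the KO mean was 1.29 ± 0.19 (SD, n = 4) and the WT mean 0.04 ± 0.09 (SD, n = 2). KO exceeded WT by 1.26 (SE 0.16), or 2.39-fold (limma adjusted p = 0.0126). As labelled, KO floating averaged 1.28 ± 0.23 and WT floating 0.42 ± 0.67 (SD, n = 3 each; difference 0.86, SE 0.42, limma adjusted p = 0.813).

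Dcx, a microtubule-associated protein of migrating neurons, was dim throughout. It had -3.13, -0.96 and -2.69 on KO floating 1, 2 and 3 and -2.62 and -6.37 on KO adherent 1 and 2, against -4.38, -2.30 and -5.61 on WT floating 1, 2 and 3. It was above background on the same 5 arrays that were high in Tubb3 and on none of the others. In the joined comparison the KO mean was -2.35 ± 0.96 (SD, n = 4) and the WT mean -4.99 ± 0.87 (SD, n = 2). This put Dcx at least 2.75-fold higher in KO on the processed signal (limma adjusted p = 0.0427). With normexp background correction the difference was 1.08 (SE 0.41) and no longer passed (limma adjusted p = 0.109). For that bound, a WT array on which Dcx was dim counted at the lowest signal that any probe well above background had there, unless Dcx itself was brighter. The 2 other Dcx probes were above background on 0 and 1 arrays and say nothing about direction.

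Stmn3, a stathmin that binds tubulin, had 1.87, 2.95 and 1.75 on KO floating 1, 2 and 3 and 2.15 and 0.51 on KO adherent 1 and 2, against 1.103, 2.31 and 1.02 on WT floating 1, 2 and 3. The 4 KO arrays of the joined comparison all lay above WT floating 1 and 3, but the difference of 1.12 (SE 0.34) did not pass (limma adjusted p = 0.0673). With the replicate number as a block it was 0.83 (SE 0.14) and passed (limma adjusted p = 0.0353). Stmn2, its relative, was at background with -6.59, -6.07 and -6.20 on KO floating 1, 2 and 3 and -6.63 and -6.28 on KO adherent 1 and 2, against -6.19, -6.96 and -5.49 on WT floating 1, 2 and 3. Values at background carry no order between groups. Gap43 and Dpysl3, growth cone proteins that belong with the early genes, had lower values in KO. Gap43 had 2.98, 3.72 and 3.86 on KO floating 1, 2 and 3 and 3.53 and 3.21 on KO adherent 1 and 2, against 4.64, 3.03 and 4.31 on WT floating 1, 2 and 3. Its joined difference was -0.95 (SE 0.27, limma adjusted p = 0.0565), and it fell past the threshold with probes above background on all arrays. For Gap43 KO adherent 2 lay with the KO arrays, unlike for Tubb3. Dpysl3 had 5.21, 5.49 and 5.62 on KO floating 1, 2 and 3 and 5.07 and 4.91 on KO adherent 1 and 2, against 5.82, 5.62 and 5.70 on WT floating 1, 2 and 3. This probe, the brighter of its pair, had a joined difference of -0.41 (SE 0.19, limma adjusted p = 0.164), and its other probe had means of -1.66 in KO and -0.32 in WT, a larger difference of -1.34. With the mean of both probes Dpysl3 was at -0.88 (SE 0.22) and passed (limma adjusted p = 0.0442).

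**Figure D2:**
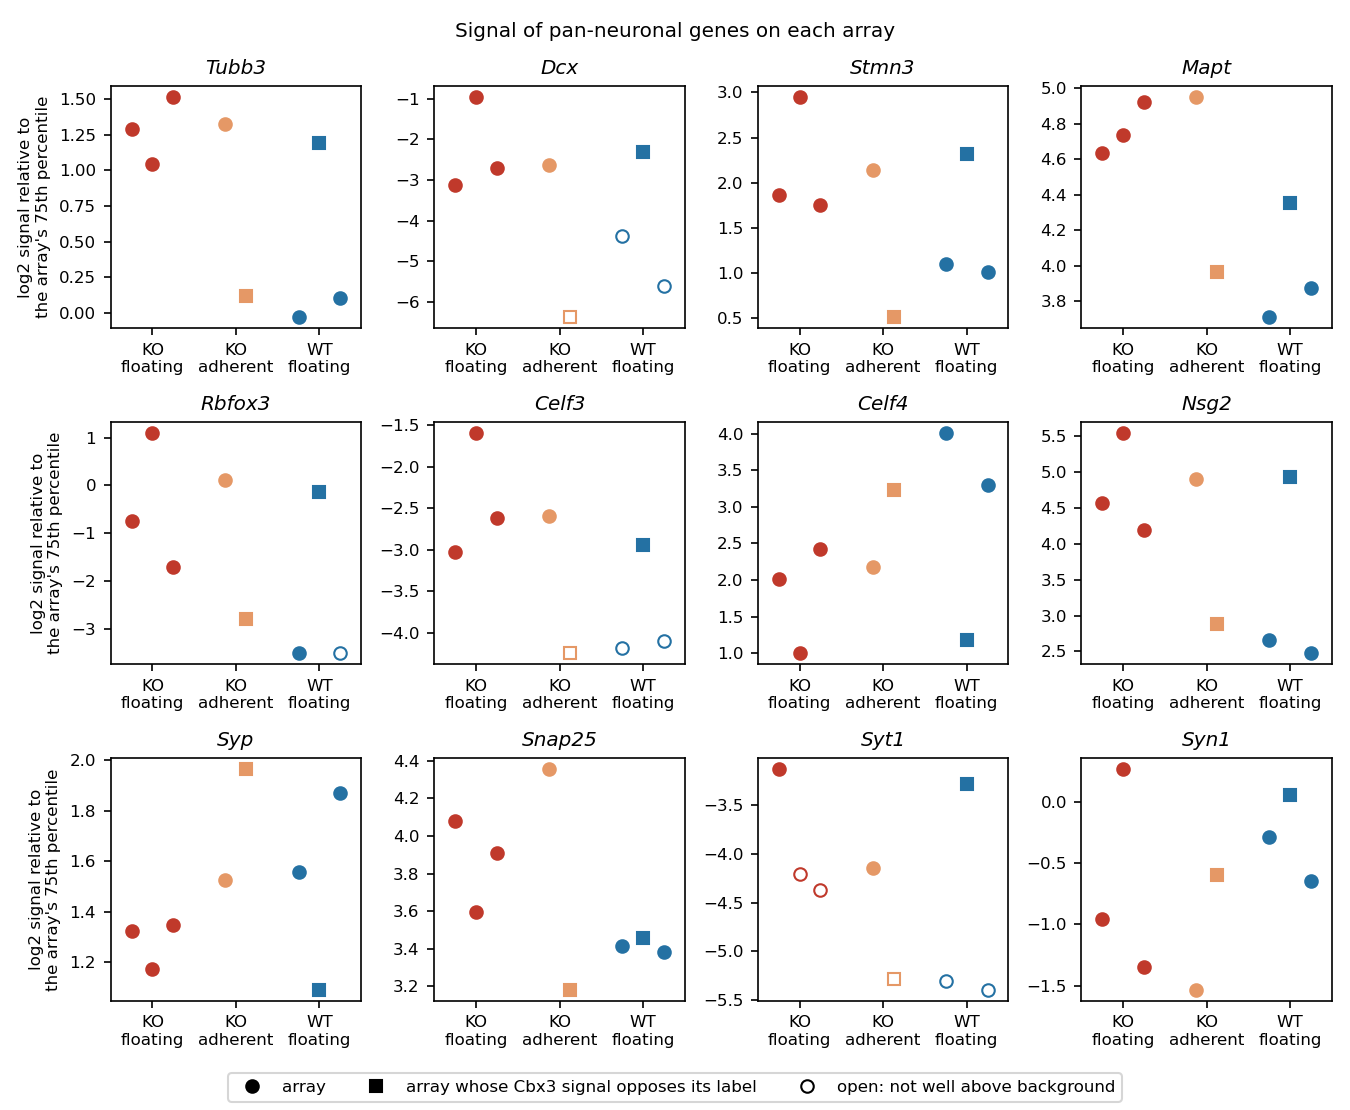
Log2 signal relative to the array's 75th percentile (vertical axes, own scale for each gene) of 12 pan-neuronal genes on the 8 arrays. Squares are the arrays labelled KO adherent 2 and WT floating 2, and open points are not well above background. For Tubb3 the squares lie at 0.12 and 1.19, each with the arrays of the other label.

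Among genes of the later cytoskeleton, Mapt, which encodes tau, gave the only call. It had 4.63, 4.74 and 4.92 on KO floating 1, 2 and 3 and 4.95 and 3.97 on KO adherent 1 and 2, against 3.71, 4.35 and 3.88 on WT floating 1, 2 and 3. All KO floating arrays lay above all WT floating arrays even as labelled, where 8.4% of all features did not overlap. The means were 4.77 ± 0.15 and 3.98 ± 0.33 (SD, n = 3 each). The difference of 0.79 (SE 0.30) did not pass after adjustment (limma adjusted p = 0.813). In the joined comparison it was 1.02 (SE 0.15), 2.03-fold (limma adjusted p = 0.0156). The other 2 Mapt probes gave differences of 0.88 and 1.39 between the same arrays. Ina, an intermediate filament subunit of neurons, was 1.20 higher (SE 0.35, limma adjusted p = 0.0595). Kif5c, a neuronal kinesin, was at -0.87 (SE 0.34, limma adjusted p = 0.118). Map2, the dendritic microtubule protein, had a difference of 0.19 (SE 0.23, limma adjusted p = 0.578) with overlapping groups. None of these 3 passed.

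Of 5 tested neuronal RNA-binding proteins, Rbfox3 and Celf3 rose in the joined comparison and Celf4 fell. Rbfox3 and Celf3 were tested through the KO arrays alone. Rbfox3, the splicing factor known as NeuN, had -0.75, 1.09 and -1.70 on KO floating 1, 2 and 3 and 0.12 and -2.79 on KO adherent 1 and 2, against -3.51, -0.14 and -3.51 on WT floating 1, 2 and 3. The spread within KO was wide and its lowest array was still above WT floating 1 and 3. The joined difference was 3.20 (SE 0.72, limma adjusted p = 0.0363), but 1 of the 2 WT arrays was at background, so no fold is given. With normexp it was 2.24 (SE 0.63) and did not pass (limma adjusted p = 0.0534). The other 2 Rbfox3 probes differed by 1.36 and 2.42 the same way. Both were at background on WT floating 1 and 3. Of the KO arrays compared, the first was above background on KO floating 2 alone, and the other was at background on KO floating 3. These differences thus rest in part on values at background.

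Celf3, a CUG-binding splicing regulator, had -3.03, -1.60 and -2.62 on KO floating 1, 2 and 3 and -2.60 and -4.25 on KO adherent 1 and 2, against -4.18, -2.94 and -4.10 on WT floating 1, 2 and 3. On the processed signal it was at least 2.54-fold higher in KO in the joined comparison (limma adjusted p = 0.0364), with 0 of 2 WT arrays above background. With normexp the difference was 0.77 (SE 0.25) and did not pass (limma adjusted p = 0.0748). Its relative Celf4 went the other way. Celf4 had 2.02, 0.997 and 2.43 on KO floating 1, 2 and 3 and 2.17 and 3.23 on KO adherent 1 and 2, against 4.01, 1.18 and 3.30 on WT floating 1, 2 and 3. The joined KO mean was 1.90 ± 0.63 (SD, n = 4) and the WT mean 3.65 ± 0.50 (SD, n = 2). The difference was -1.75 (SE 0.43), 3.36-fold lower (limma adjusted p = 0.0419), and its other probe differed by -2.04. Celf4 was lowest on KO floating 2, the array where Rbfox3 and Celf3 were highest.

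The Elavl genes, which stabilise neuronal messenger RNAs, showed no call. Elavl3 had a joined difference of -0.89 (SE 0.54, limma adjusted p = 0.264) and was at -2.28 on KO floating 3, well under the other arrays (-0.88 to -0.08). Elavl4 differed by -0.10 (SE 0.21, limma adjusted p = 0.757), and KO adherent 2 had its highest value, 0.96, against -0.90 to -0.36 elsewhere. The brighter Elavl2 probe was at -3.58, -2.15 and -4.51 on KO floating 1, 2 and 3 and at -3.58 and -4.89 on KO adherent 1 and 2, against -5.44, -2.55 and -5.65 on WT floating 1, 2 and 3.

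None of the 3 tested genes of the synaptic vesicle passed in the joined comparison, and their differences had both signs. Syp, the vesicle protein synaptophysin, had 1.32, 1.17 and 1.35 on KO floating 1, 2 and 3 and 1.53 and 1.96 on KO adherent 1 and 2, against 1.56, 1.09 and 1.87 on WT floating 1, 2 and 3. Its joined difference was -0.37 (SE 0.16, limma adjusted p = 0.147). Snap25, a SNARE protein of vesicle fusion, had 4.08, 3.59 and 3.91 on KO floating 1, 2 and 3 and 4.35 and 3.18 on KO adherent 1 and 2, against 3.41, 3.46 and 3.38 on WT floating 1, 2 and 3. Its joined difference was 0.59 (SE 0.22, limma adjusted p = 0.11). With the replicate block it was 0.68 (SE 0.15) and passed (limma adjusted p = 0.0493). As labelled, the KO floating and WT floating arrays did not overlap (8.4% of all features did not).

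Syn1, a vesicle-tethering synapsin, had -0.96, 0.26 and -1.35 on KO floating 1, 2 and 3 and -1.53 and -0.60 on KO adherent 1 and 2, against -0.29, 0.05 and -0.65 on WT floating 1, 2 and 3. The groups overlapped (joined difference -0.43, SE 0.50, limma adjusted p = 0.557). Its high arrays were KO floating 2 and WT floating 2, which carry different labels and the same number. Syt1 had -3.13, -4.20 and -4.37 on KO floating 1, 2 and 3 and -4.15 and -5.29 on KO adherent 1 and 2, against -5.30, -3.28 and -5.39 on WT floating 1, 2 and 3, and was above background on KO floating 1, KO adherent 1 and WT floating 2. Whether early and synaptic genes differed in response was not tested.

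Nsg2 and its relatives, small membrane proteins of neuronal endosomes, and Scg3, a secretory granule protein, were all higher in KO in the joined comparison. Nsg2 had 4.57, 5.54 and 4.19 on KO floating 1, 2 and 3 and 4.90 and 2.88 on KO adherent 1 and 2, against 2.66, 4.93 and 2.47 on WT floating 1, 2 and 3. It fell into separate low and high levels on the same arrays as Tubb3. The joined KO mean was 4.80 ± 0.57 (SD, n = 4) and the WT mean 2.56 ± 0.13 (SD, n = 2), with a difference of 2.24 (SE 0.36), 4.71-fold (limma adjusted p = 0.0192). Nsg1 had 4.74, 5.23 and 4.89 on KO floating 1, 2 and 3 and 4.82 and 4.58 on KO adherent 1 and 2, against 4.52, 5.04 and 4.64 on WT floating 1, 2 and 3. Its joined difference was 0.34 (SE 0.17, limma adjusted p = 0.2). Scg3 lay between 2.86 (KO adherent 2) and 4.65 (KO floating 2) and differed by 0.75 (SE 0.25, limma adjusted p = 0.0844), so neither passed. Uchl1, an abundant neuronal ubiquitin hydrolase, was at -1.03, -0.41 and -0.52 on KO floating 1, 2 and 3 and -0.95 and -0.54 on KO adherent 1 and 2, against 0.13, -1.03 and 0.03 on WT floating 1, 2 and 3. Its joined difference was -0.80 (SE 0.22, limma adjusted p = 0.0516).

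The 2 arrays left out of the joined comparison can be set beside it. For 7 of 7 called genes WT floating 2 lay nearer the KO mean than the WT mean, as it did for 97.2% of all called features. KO adherent 2 lay nearer the KO mean for 0 of 7 called genes, and for 15% of all called features. KO floating 2 had the highest value of all 8 arrays for 10 of 21 genes and WT floating 1 for 6.

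The joined calls rest on few arrays. Without WT floating 1, without WT floating 3 or without KO adherent 1, 0 of 21 members passed (4.08%, 2.73% and 2.15% of all features). Without KO floating 1 Tubb3 and Mapt remained (3.24% of all features). Without KO floating 2 there were 11 of 21 and without KO floating 3 there were 12 of 22 (23.6% and 22.9% of all features). The share of all features passing was lower than 17.3% in each setting that left 0 or 2 members and higher in those that left 11 or 12. With a replicate block 11 of 21 passed (19.2% of all features), 9 higher and 2 lower, adding Stmn3, Snap25, Scg3 and Uchl1 to the 7. Number 2 then holds KO floating 2 alone, so that array no longer enters the difference.

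**Figure D3:**
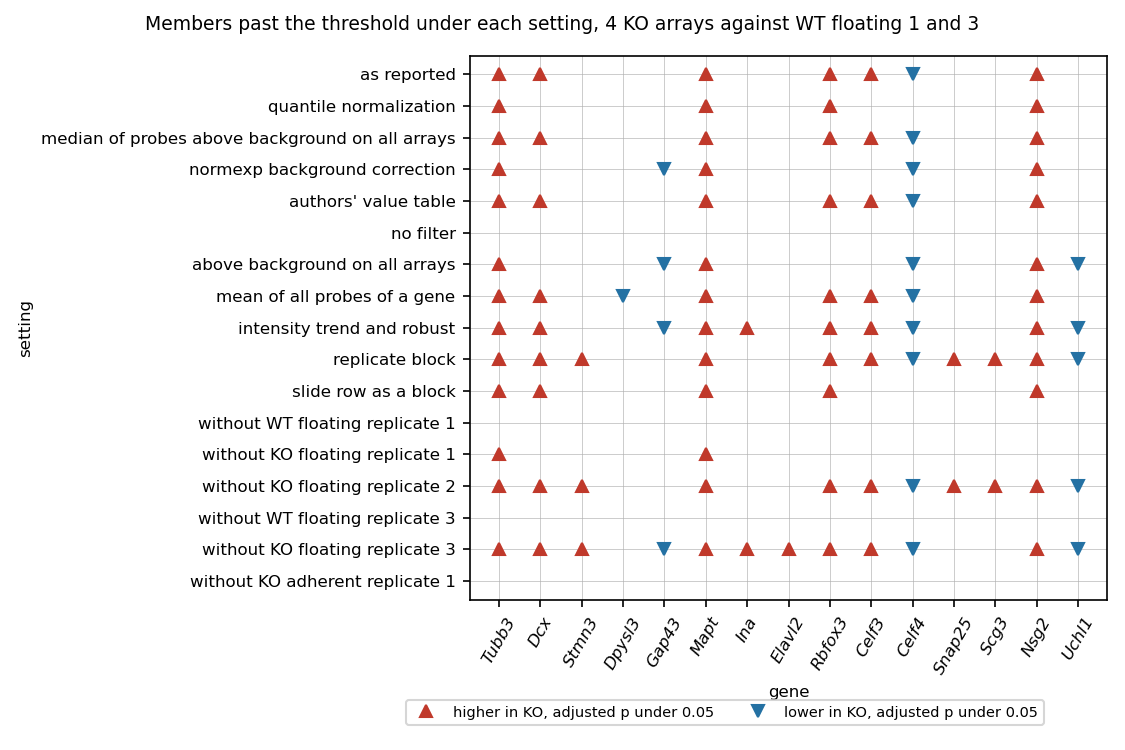
Pan-neuronal genes past the threshold (horizontal axis) under each setting of the joined comparison (vertical axis). Upward triangles are genes higher in KO and downward triangles genes lower in KO. Tubb3 and Mapt appear in each setting that gives any call, and 4 settings give none.

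RefSeq windows of GRCm38.p6, from 250 bases before to 50 after a start site, were matched for 19 of 28 genes, 36 windows in all, some of which overlap. Each was searched on both strands for CANNTG, the E-box that proneural factors bind, and for the arms CAGCACC and GGACAG of RE1, the element bound by REST. CANNTG stood in 26 of 36 windows (72.2%), against 72.3% of all 32817 windows of that length. Its form CAGCTG, a subset of CANNTG, stood in 13 (36.1%), against 16.3%. Among the 13 are overlapping windows of Elavl2, Elavl4 and Celf3, which can hold the same site. The share is thus of windows and not of genes. CAGCACC stood in 4 (11.1%), against 7.14%, and GGACAG in 7 (19.4%), against 22.2%. A match describes letters and is not a binding site. Shown here are windows of 3 genes that rose and of the synaptic gene Syn1, which did not pass, with the E-box and the arms of RE1, on either strand, in capitals. They are chr8:123411303-123411602 (+ strand) for Tubb3, chr11:32000450-32000749 (+ strand, the downstream one of 2 windows) for Nsg2, chr11:118760992-118761291 (- strand) for Rbfox3 and chrX:20920869-20921168 (- strand) for Syn1.
Tubb3: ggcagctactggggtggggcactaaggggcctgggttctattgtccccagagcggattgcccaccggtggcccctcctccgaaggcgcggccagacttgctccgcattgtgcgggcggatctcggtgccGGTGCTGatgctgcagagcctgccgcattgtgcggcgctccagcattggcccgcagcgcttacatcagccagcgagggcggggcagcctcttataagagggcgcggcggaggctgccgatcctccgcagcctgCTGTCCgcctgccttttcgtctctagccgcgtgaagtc
Nsg2: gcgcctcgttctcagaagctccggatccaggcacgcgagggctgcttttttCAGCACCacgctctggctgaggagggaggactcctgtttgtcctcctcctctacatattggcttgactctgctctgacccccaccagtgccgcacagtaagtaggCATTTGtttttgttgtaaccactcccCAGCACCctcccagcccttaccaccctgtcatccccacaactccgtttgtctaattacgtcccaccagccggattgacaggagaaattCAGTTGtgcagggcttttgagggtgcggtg
Rbfox3: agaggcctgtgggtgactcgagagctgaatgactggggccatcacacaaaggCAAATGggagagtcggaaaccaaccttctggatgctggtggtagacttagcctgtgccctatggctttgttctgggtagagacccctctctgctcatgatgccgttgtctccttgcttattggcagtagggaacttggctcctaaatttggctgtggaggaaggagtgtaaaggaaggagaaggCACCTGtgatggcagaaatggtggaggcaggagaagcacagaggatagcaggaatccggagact
Syn1: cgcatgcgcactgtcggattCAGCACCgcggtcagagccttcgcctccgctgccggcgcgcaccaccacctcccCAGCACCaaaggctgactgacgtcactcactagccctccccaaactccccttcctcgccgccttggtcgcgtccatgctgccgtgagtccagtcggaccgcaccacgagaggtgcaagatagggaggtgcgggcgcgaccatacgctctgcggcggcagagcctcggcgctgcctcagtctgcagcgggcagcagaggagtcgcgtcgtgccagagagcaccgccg
The Tubb3 window held 0 CANNTG, 1 CAGCACC and 1 GGACAG. The Nsg2 window shown held 2 CANNTG and 2 CAGCACC, the Rbfox3 window 2 CANNTG, and the Syn1 window 2 CAGCACC. The upstream Nsg2 window, not shown, held 4 CANNTG and 0 CAGCACC. The windows shown are not a sample of the 36, and CAGCACC is more frequent among them than among the 36. Among genes that rose, Tubb3 had 26 CpGs, the Nsg2 windows 10 and 11, Rbfox3 4, the Dcx windows 3 each and the Celf3 windows 1 to 12. Genes without a call had many or few, with Map2 at 37, Syn1 at 33, Ina at 32, Elavl4 at 4 to 23, Uchl1 at 9 and Stmn3 at 6. Whether CpG number goes with the calls was not tested. The list's windows ranged from 1 to 37 with a median of 11, against a median of 7 for all windows.

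Beyond the list, 113 other neuronal genes were followed by role in the joined comparison. Of 94 tested, 18 rose and 10 fell, with a median difference of 0.15 (-0.07 over all features). In this comparison 8.99% of all features rose and 8.35% fell, the shares to set beside each count below. The count was 28 where 17.3% of all features passed. It was 3 without WT floating 3 (2.73% of all features) and 6 without KO adherent 1 (2.15%). Without WT floating 1 or KO floating 1 it was 10 (4.08% and 3.24%). Changes below are log2 differences with limma adjusted p from 0.00688 (Stmn4) to 0.048 (Ptbp1).

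In the other vesicle genes 5 of 20 tested rose and 0 fell (8.99% and 8.35% of all features). Synpr, synaptoporin, rose by 3.00 (SE 0.37), Sh3gl2, an endophilin of vesicle uptake, by 1.85 (SE 0.23) and Snap91, a clathrin adaptor, by 1.67 (SE 0.35). Synpr and Snap91 were above background on 1 of 2 WT arrays, were tested through the KO arrays alone and so had to be higher there. The other 3 genes that rose were above background on all 6 arrays. Of 12 tested adhesion genes 5 rose and 2 fell, with the synaptic adhesion protein Nlgn3 at 1.28 (SE 0.22) and Cntn1 at 0.83 (SE 0.20), against Nrcam at -1.18 (SE 0.30) and Ncam1 at -0.73 (SE 0.15). Of 12 tested postsynaptic genes 2 rose, the kinase Camk2a by 2.21 (SE 0.29) and the glutamate receptor subunit Gria2 by 1.62 (SE 0.37), and 1 fell, the scaffold Dlg4, at -0.71 (SE 0.17).

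Calls among cytoskeletal and secretory genes went both ways. Of 22 other cytoskeletal genes 2 rose and 2 fell, near the shares of all features (8.99% and 8.35%). The kinesin Kif21b rose by 1.11 (SE 0.15) and Ank2 by 0.86 (SE 0.21), while Stmn4 was at -2.41 (SE 0.23) and Tubb4a at -0.65 (SE 0.16). The stathmins Stmn3 and Stmn4 thus differed from WT in opposite directions, Stmn3 without a call. Of 12 granule genes 2 rose, the granins Chgb by 2.49 (SE 0.28) and Chga by 1.53 (SE 0.33). In the same list 3 fell, Scg2 at -3.40 (SE 0.50), Vgf at -2.11 (SE 0.47) and Ptprn. On the processed signal Ptprn was at least 13.1-fold lower, with 0 of 4 KO arrays above background. Ptprn was tested through the WT arrays alone and so had to be lower in KO. Of 7 tested RNA-binding genes Rbfox1 rose by 1.34 (SE 0.32), tested through the KO arrays alone with 1 of 2 WT arrays above background, and Khdrbs3 fell, at -0.68 (SE 0.15).

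Of the 9 genes of REST, its complex and Ptbp1, 1 rose and 1 fell (8.99% and 8.35% of all features). Rest itself differed by 0.01 (SE 0.14, limma adjusted p = 0.976) and its corepressor Rcor2 rose by 0.95 (SE 0.19). Ptbp1, a splicing repressor of non-neuronal cells, was at -0.74 (SE 0.19).

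**Figure D4:**
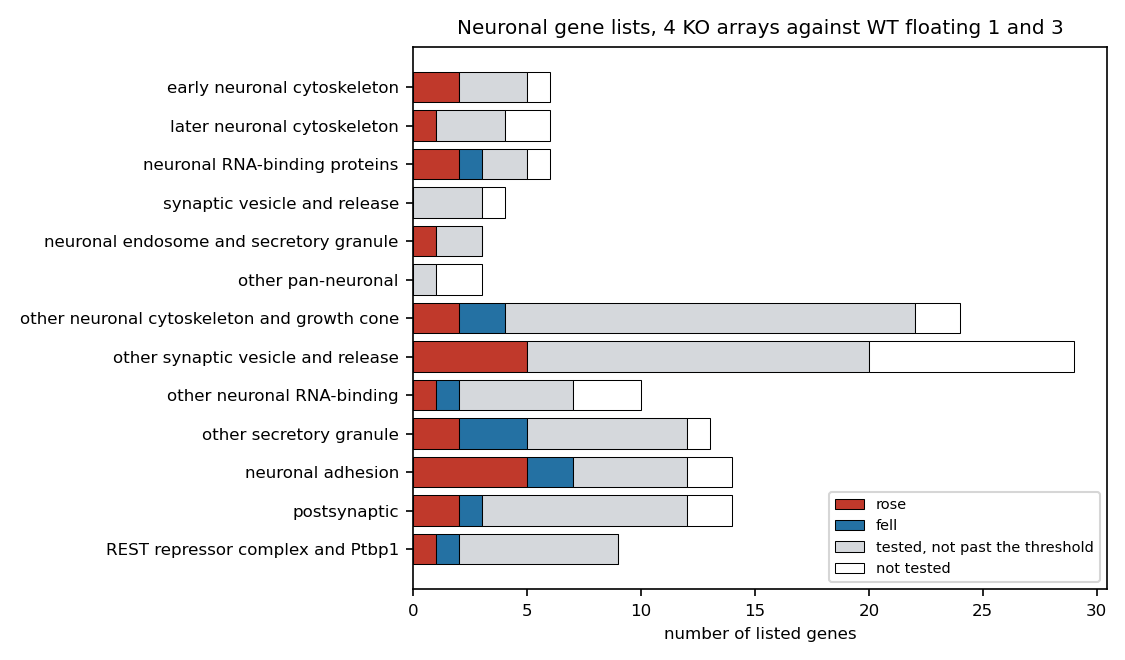
Number of listed genes that rose, fell, were tested without passing or were not tested in the joined comparison, for 6 roles of the pan-neuronal list (top) and 7 lists of other neuronal genes (bottom). The synaptic vesicle genes of the pan-neuronal list have 0 calls of 3 tested and the other vesicle genes 5 of 20 (17.3% of all features). Of these 5, 2 were tested through the KO arrays alone.

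In the joined comparison astrocyte and oligodendrocyte lineage markers were higher in sum on the 4 KO arrays. Microglial and endothelial markers, of which 3 each were tested, and fibroblast markers gave no call. Summed over each list, as multiples of the 75th percentile, the 6 astrocyte markers reached 182 to 307 on the 4 KO arrays and 69.0 to 129.7 on the 2 WT arrays, and the 8 oligodendrocyte lineage markers 137 to 198 on the KO and 50.8 to 52.8 on the WT arrays. The 8 neural stem markers had 489 to 675 on the KO and 479 to 496 on the WT arrays. In the astrocyte list 4 rose and 1 fell of 6 tested, in the oligodendrocyte list 4 rose and 1 fell of 8, and in the neural stem list 2 rose and 2 fell of 8. Of all features 8.99% rose and 8.35% fell. Among the astrocyte genes that rose, 1 was tested through the KO arrays alone and so had to be higher there. With the labels as they stand the sums overlapped, with 182 to 307 on KO floating and 69.0 to 234 on WT floating arrays for astrocyte markers, and 138 to 198 and 50.8 to 194 for oligodendrocyte markers. The 7 microglial markers summed to 16.1 to 27.3 on KO and 14.1 to 14.8 on WT arrays, and of them Aif1, Cx3cr1 and Ptprc were at background on all arrays. Endothelial markers had 12.2 to 13.7 on KO and 12.6 to 16.7 on WT arrays, with Cdh5 and Cldn5 at background, and fibroblast markers, of which 0 were tested, 0.140 to 0.518 on KO and 0.298 to 0.406 on WT arrays, with Lum and Pdgfrb at background. What part a different mix of cells has in the neuronal differences was not tested.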

How the data were processed

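RNA of 8 neurosphere samples was measured on Agilent single-colour (Cy3) arrays. Spot intensity on a linear scale comes from Agilent's Feature Extraction software run by the authors, version 11.0.1.1 per the file headers and 9.1.3.1 in the notes on processing that the submitters gave. The deposited value table, also linear intensity, was used as an alternative. From the processed signal, log2 values were computed here and centred at the 75th percentile of an array's non-control spots, outlier spots were left out and repeated spots averaged. Accessions without versions were matched to the RefSeq table of GRCm38.p6, which named 27235 of 55681 probes. A probe was tested where at least 1 group of the fit had it well above background on all its arrays, and the brightest probe stood for a gene.

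Tests used limma 3.58.1 (moderated statistics from eBayes, both directions) under R 4.3.3, fitted on all features, with Benjamini-Hochberg adjustment over all of them and a threshold of 0.05. The 3 labelled comparisons shared a fit of all 8 arrays. Another fit left out the 2 arrays whose Cbx3 signal opposes the label, and the last also joined the KO cultures. The fits were also run on simulated data with the same noise level for all features and arrays. That level was below the spread of several called members, so the run does not show how the fits do on these arrays. The number of arrays limits the precision. Values are given for each member past the threshold, for 8 early and synaptic genes whatever their result, and for the brightest member of each role; of other lists, up to 3 passing genes a direction. Gap43 and Elavl2 are given by array beyond this rule, chosen after their values were seen. A gene that the rule would name among the other lists is not reported here.

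The members, lists and fits were chosen with earlier results of these data known. Deviations of same-numbered KO and WT floating arrays from their group means correlated at 0.103, 0.590 and 0.335 (across features). WT floating 1 correlated with KO floating 3 at 0.346, and the 0.590 involves WT floating 2, whose Cbx3 signal opposes its label. The numbers, which come from the sample titles, entered only through the replicate block, an alternative setting. The main fits were unpaired. Per the labels a sample holds the spheres of 1 embryonic brain, and whether floating and adherent samples share an embryo is not stated there; if they do, the joined KO group holds fewer than 4 independent samples.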

Additional observations from a re-analysis of the deposited data

How the results depend on the processing

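Alternatives were quantile normalization, centring on probes above background on all arrays, normexp (offset 50, run on the median spot signal), the deposited value table, no filter, a filter for background on all arrays, the mean of a gene's probes, fitting the compared groups alone, robust eBayes with an intensity trend, the replicate block, the slide row as a block and leaving out each array. The 3 labelled comparisons had 0 members past the threshold in each of these, with the replicate block (paired by number) and without the 2 arrays included (0 to 0 with 1 array left out). KO floating against WT floating without the 2 arrays had 0 members (0.177% of all features passed). With the intensity trend it had 2, Tubb3 and Mapt, where 1.75% of all features passed. With the replicate block it had 0 (0% of all features), and 0 to 0 with 1 array left out. In the joined comparison the 7 members became 4 with quantile normalization (Tubb3, Mapt, Rbfox3 and Nsg2), 0 with no filter, where 48960 features were tested and 179 passed, 11 with the replicate block, and 0 to 12 with 1 array left out. The causes were not tested. Normexp gave 5 (16.2% of all features passed), slide row 5 (12.9%), the mean of probes 8 (17.6%) and the trend 10 (20%), against 14.3% for quantile normalization. Normexp lost Dcx (1.08), Celf3 (0.77) and Rbfox3 (2.24). The count of other neuronal genes there, 28, was 2 with no filter (0.366% of all features). It was 3 to 35 with 1 array left out, where 2.15% to 23.6% of all features passed. Applying the alternatives to this count was decided after the data were seen. The called members' differences kept their sign in all settings run. These settings reuse the arrays on which the genes were called, so a kept sign is no separate support. Dcx, Celf3 and Rbfox3 entered through the KO arrays alone and so had to be higher there. With 1 array left out the differences ran from 1.19 to 1.34 for Tubb3, 0.94 to 1.103 for Mapt and 1.99 to 2.44 for Nsg2. They ran from 2.73 to 3.67 for Rbfox3, 2.03 to 3.26 for Dcx, 1.39 to 1.87 for Celf3 and -2.10 to -1.40 for Celf4. Among differences that never passed, Tubb3 in KO adherent against KO floating, -0.57, was 0.039 without the 2 arrays and -1.17 to 0.039 with 1 array left out. Against WT floating it was 0.30 for KO adherent, and -0.31 to 0.90 with 1 array left out. Dcx in that comparison, -0.40, was 0.57 with the slide row as a block, 2.38 without the 2 arrays and -2.28 to 1.48 with 1 array left out. Stmn2 gave no difference, as it was at background on all arrays.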
